A study of Mus musculus with 2 samples.

Results

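The expression of 10 lineage transcription factors was followed across the cells of KPCA omental tumors, namely Pax8, Emx2, Sox9, Sox17, Esr1, Pgr, Wt1, Gata4, Gata6 and Hnf4a. Each was taken as the row of the gene table that carried its symbol, which gave 10 genes of the 32285 measured, and each symbol matched 1 row in both libraries. KPCA is a mouse ovarian cancer line of fallopian tube origin that carries mutant Trp53 and overexpressed Ccne1 and Akt2. The tumors grew in the omentum of female C57Bl6J mice 12 to 16 weeks old and were collected on day 10 after an intraperitoneal graft, without treatment. In the KPCA.FSTKO group the grafted cells lacked Fst, the gene of the activin antagonist follistatin, and had been made from the clone KPCA.C. In the KPCA.FSTKO_hFSTL3 group the grafted cells were 1 clone of that same knockout line, selected in geneticin, that carried a plasmid for human FSTL3, a relative of follistatin. Both groups therefore lacked Fst in the grafted cells, the host cells of both were wild type, and each group was 1 single-cell library from 4 pooled tumors. With 1 library per genotype there was no replicate and no test was made. Genotype, clone, tumor and library cannot be told apart, and the intervals given throughout are 95% intervals that cover counting error only.

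In the embryo the Müllerian duct, which forms the oviduct and uterus, arises from the coelomic epithelium beside the kidney primordium, and Pax8, Pax2 and Emx2 are among the factors that build it. PAX8, WT1 and ESR1 are used in pathology to recognise serous carcinoma of the tube and ovary, while in the normal abdomen Wt1 and Gata6 are also expressed by the mesothelium and by fibroblasts that share its origin. Sox9 acts in ductal progenitors and cartilage, Sox17 in endoderm and arterial endothelium, Gata4 and Gata6 in heart, gonad and gut, and Hnf4a in liver, gut and kidney tubules.

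The KPCA.FSTKO library held 7582 barcodes and 168214773 unique molecular identifiers (UMIs, 1 per captured transcript), with a median of 16368 UMIs per barcode. The KPCA.FSTKO_hFSTL3 library held 4244 barcodes and 80391504 UMIs, with a median of 15122.5 UMIs. After barcodes with 20% or more mitochondrial UMIs, with 200 or fewer genes or with 8000 or more genes, were left out, 6777 and 4041 barcodes remained, and 12 barcode sequences occurred in both libraries. Barcodes were placed in classes by the UMIs of marker lists that contain none of the 10 factors, per 10000 UMIs of the barcode. A class is thus a range of a score with thresholds chosen after the data had been seen, and its name stands for that gate. The cancer-like class held 3732 KPCA.FSTKO cells (55.1%) and 361 KPCA.FSTKO_hFSTL3 cells (8.93%), with median depths of 27518.5 and 21348 UMIs. The stromal-like class, gated on fibroblast and myofibroblast markers, held 316 and 51 cells, and the macrophage-like class held 799 and 148 cells. Scores up to 25% above the cancer threshold were held by 106 cells inside the class in KPCA.FSTKO and 18 in KPCA.FSTKO_hFSTL3, and scores up to 20% below it by 181 and 78 cells outside.

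The KPCA.FSTKO_hFSTL3 library stood apart. In it 3071 barcodes (76.0%) passed the bounds of several classes at once and were set aside as mixed, against 594 (8.76%) in KPCA.FSTKO, and 99.3% of these 3071 were above both the cancer and the macrophage bound. The median score of pancreatic acinar genes, which mark a neighbouring organ, was 92.4 in these mixed barcodes and 11.05 in cancer-like cells of the same library, against 0.208 in KPCA.FSTKO cancer-like cells. The summed level of the 16 acinar genes in cancer-like cells was 33.4 CPM in KPCA.FSTKO and 799 CPM in KPCA.FSTKO_hFSTL3, and that of 5 erythroid genes was 74.0 and 701 CPM. CPM is the number of UMIs of a gene per 1000000 UMIs of the class. The part of such free or mixed RNA in the results below was not tested, and KPCA.FSTKO values are given on their own beside every comparison.

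All 13 cancer markers were found in the cancer-like cells of both libraries, with a summed level of 6864 and 5827 CPM, led by Hmga2 at 1730 and 1538 CPM. The labels call the grafted cells fallopian tube epithelial cells, and of 6 oviduct markers the secretory gene Wfdc2, which is also in the cancer gate, held 481.5 of the summed 518 CPM in KPCA.FSTKO and 81.7 of 127 CPM in KPCA.FSTKO_hFSTL3. Lhx1 was found with 1 UMI and Muc16 with 12 UMIs in KPCA.FSTKO cancer-like cells, and both were at 0 in KPCA.FSTKO_hFSTL3. Stromal-like cells held 22388 and 22242 CPM of 12 fibroblast genes, led by Col3a1. Cells above the mesothelial gate, 34 and 12 in number, held 975 and 669 CPM of 9 mesothelial genes but also 16173 and 16452 CPM of the fibroblast genes, so that the name mesothelial-like stands for the gate alone. Fst itself gave 544 UMIs (5.02 CPM) and 89 UMIs (8.91 CPM) in cancer-like cells against 132 and 218 CPM in stromal-like cells. The 3′ tag may lie outside the deleted part of the gene, so this level does not check the knockout.

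Levels below are in CPM. They are not divided by gene length and are compared within a gene only. The 10 factors fell into separate territories. Among the cancer-like, stromal-like, mesothelial-like, endothelial-like, macrophage-like and T and NK-like classes, Sox9, Emx2, Pax8, Gata4 and Hnf4a were highest in cancer-like cells, Wt1 and Gata6 in stromal-like and mesothelial-like cells, and Sox17 in endothelial-like cells. Esr1 was spread over the cancer-like, macrophage-like and stromal-like classes, and Pgr was nearly absent everywhere. The heat map of levels by class shows this pattern side by side in both libraries.

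**Figure D1:**
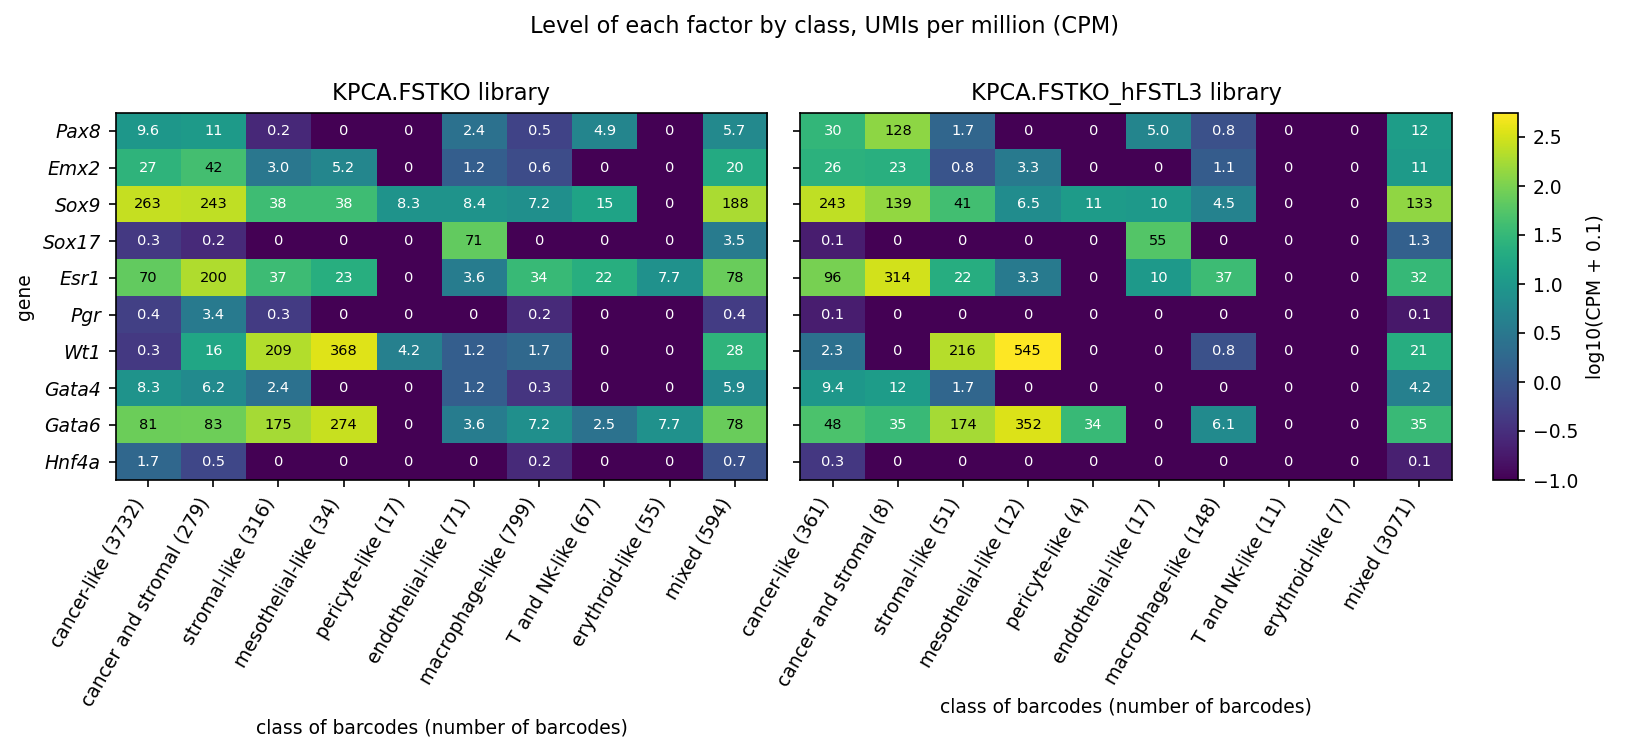
Level of the 10 factors (rows) in 10 classes of cells (columns), KPCA.FSTKO on the left and KPCA.FSTKO_hFSTL3 on the right; colour is log10(CPM + 0.1) and the CPM is printed in each field. Sox9 stands at 263 and 243 CPM in cancer-like cells, Wt1 at 209 and 216 CPM in stromal-like cells and Sox17 at 70.7 and 55.5 CPM in endothelial-like cells.

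Pax8, a paired-box factor of the Müllerian and nephric lineages and of the thyroid, was higher in KPCA.FSTKO_hFSTL3 than in KPCA.FSTKO cancer-like cells. Its gene (ENSMUSG00000026976) spans 55.0 kb of the minus strand at chr2:24420560-24475599 of GRCm38. The 250 bases before the start of Pax8 are printed below together with those of Pgr (ENSMUSG00000031870), a progesterone receptor gene of similar span (68.8 kb, chr9:8899833-8968611, plus strand), since Pax8 was found in many cancer-like cells and Pgr in few. Both come from the RefSeq promoter table on GRCm38.p6 and run 5′ to 3′ on the strand of the gene. Capitals mark a CCAAT box and a GC box (GGGCGG), each searched on both strands, so that either may appear as its reverse complement.
Pax8 promoter, chr2:24475600-24475849, minus strand: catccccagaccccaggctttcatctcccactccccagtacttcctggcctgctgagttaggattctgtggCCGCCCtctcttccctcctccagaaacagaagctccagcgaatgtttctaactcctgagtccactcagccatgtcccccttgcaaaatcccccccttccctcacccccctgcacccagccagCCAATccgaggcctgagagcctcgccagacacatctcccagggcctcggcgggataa
Pgr promoter, chr9:8899583-8899832, plus strand: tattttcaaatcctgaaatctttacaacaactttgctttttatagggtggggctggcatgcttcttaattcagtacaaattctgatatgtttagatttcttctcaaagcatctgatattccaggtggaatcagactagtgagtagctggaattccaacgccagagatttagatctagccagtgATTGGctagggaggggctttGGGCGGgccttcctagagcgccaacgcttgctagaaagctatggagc
Each window held 1 CCAAT box and 1 GC box, as 33.8% and 32.7% of 32851 promoter windows of this length did. Neither held an estrogen receptor half-site (GGTCA on either strand, in 35.2% of windows), a GATA motif (AGATAA or, in its place, TGATAA, on either strand, in 16.6%) or a SOX motif (ACAAT on either strand, in 27.7%). A match is a description of letters and not a site, and the absence of one covers only this window.

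The KPCA.FSTKO cancer-like cells gave 1039 Pax8 UMIs, a level of 9.59 CPM (9.01 to 10.2), and the KPCA.FSTKO_hFSTL3 cancer-like cells gave 298 UMIs, 29.8 CPM (26.5 to 33.4). The KPCA.FSTKO_hFSTL3 level was 3.11 times (2.73 to 3.54) that of KPCA.FSTKO. A size rule was used in place of a test, namely at least 100 UMIs over both sums and a ratio of at least 2 in either direction. In this comparison of cancer-like cells 464 of 13005 genes passed it as higher in KPCA.FSTKO_hFSTL3 (3.57%) and 844 as lower (6.49%), with a median log2 ratio of -0.00. Of the 7 factors with enough UMIs, Pax8 passed as higher and Hnf4a as lower, and Sox9, Emx2, Esr1, Gata4 and Gata6 did not pass. Both calls depended on a setting, since with classes taken from Seurat clusters, which bring in mixed barcodes, Pax8 fell short at a log2 ratio of 0.62 in place of 1.64, and without the top 5% of UMIs Hnf4a fell short at -0.57 in place of -2.48. The 10 cells richest in Pax8 held 72 of the 298 UMIs in KPCA.FSTKO_hFSTL3.

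**Figure D2:**
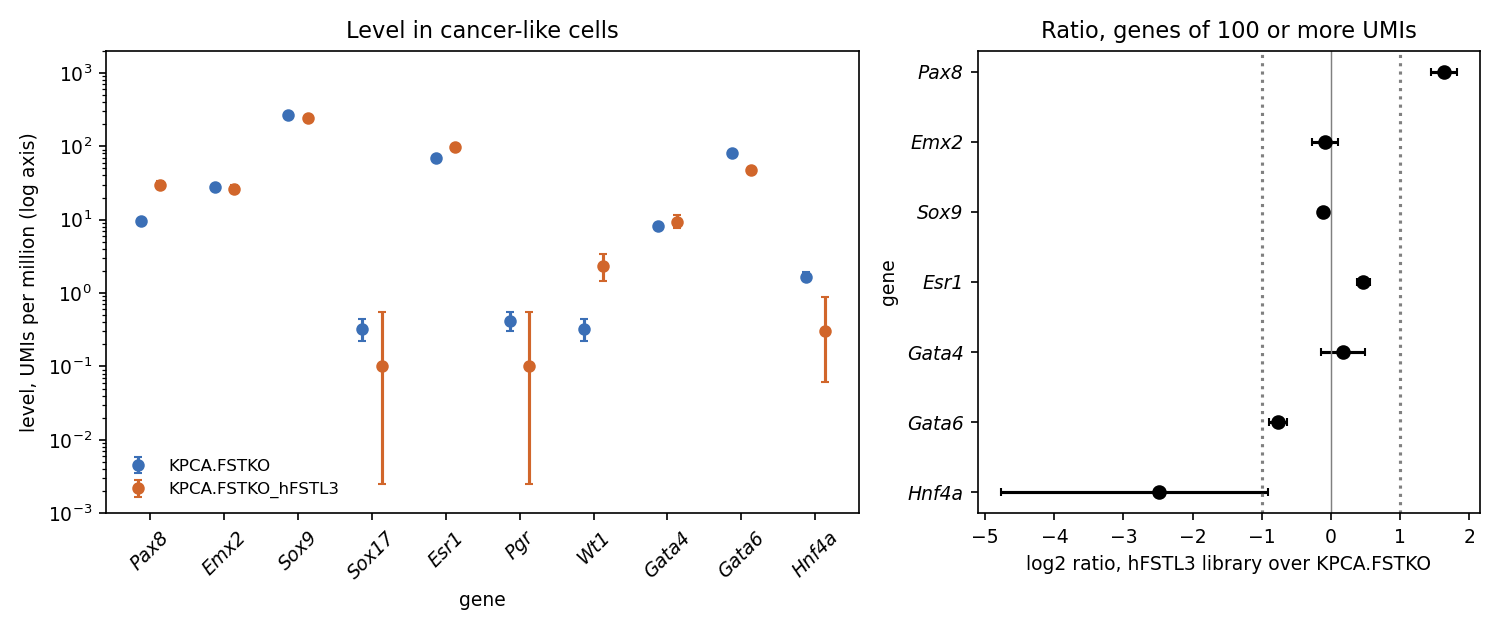
Left, level of the 10 factors in cancer-like cells (CPM, log axis, bars are 95% counting intervals) in KPCA.FSTKO (blue) and KPCA.FSTKO_hFSTL3 (orange). Right, log2 ratio of the KPCA.FSTKO_hFSTL3 level to the KPCA.FSTKO level for the 7 factors with at least 100 UMIs, dotted lines marking a ratio of 2 in either direction; Pax8 lies above them at 3.11-fold and Hnf4a below at 0.179-fold.

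The cancer-like class was spread differently over the clusters in each library. Clusters 1, 2, 4 and 9 held 1283, 1017, 830 and 309 cells of KPCA.FSTKO but 75, 48, 44 and 6 cells of KPCA.FSTKO_hFSTL3, which had another 54 cells in each of clusters 10 and 11 and 44 in cluster 8. Pax8 was higher in KPCA.FSTKO_hFSTL3 inside each of clusters 1, 2, 4 and 9. In cluster 1, led by Prg4, Mgat4c and Igfbp5, Pax8 stood at 12.5 CPM in KPCA.FSTKO and 40.8 CPM in KPCA.FSTKO_hFSTL3. In cluster 2, led by the interferon-induced gene Ifit1 and the haemoglobin genes Hba-a2, Hba-a1 and Hbb-bs, it stood at 5.18 and 17.0 CPM, and in cluster 4, led by the mitotic genes Esco2, Cenpf and Hmmr, at 7.93 and 26.6 CPM. The ratios in clusters 1, 2 and 4 were 3.28 (2.71 to 3.95), 3.28 (2.28 to 4.63) and 3.35 (2.48 to 4.47). Cluster 9 held only 6 KPCA.FSTKO_hFSTL3 cells, and there Pax8 stood at 36.9 and 145 CPM. In cluster 11, with 5 and 6 Pax8 UMIs, it stood at 3.24 CPM (1.05 to 7.56) and 9.11 CPM (3.34 to 19.8), and these intervals overlapped. Clusters 8 and 10 held no KPCA.FSTKO cancer-like cell. The mixed barcodes can be set on the same footing by counting Pax8 against Sox9, since Sox9 is itself mostly from cancer cells. Per 1000 Sox9 UMIs there were 36.5 Pax8 UMIs (34.2 to 38.8) in cancer-like and 30.5 (20.6 to 43.5) in mixed barcodes of KPCA.FSTKO. In KPCA.FSTKO_hFSTL3 there were 122.5 (108 to 138) in cancer-like and 90.9 (83.8 to 98.5) in mixed barcodes, so both kinds of barcode of this library were above both kinds of the other. The part of library background in these numbers was not tested. Thinned to 1000 UMIs per cell, 1.05% (0.74 to 1.43) of KPCA.FSTKO and 3.32% (1.73 to 5.73) of KPCA.FSTKO_hFSTL3 cancer-like cells held a Pax8 UMI.

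Few Pax8 UMIs were found outside the cancer cells. Pax8 gave 1 UMI in KPCA.FSTKO and 2 UMIs in KPCA.FSTKO_hFSTL3 stromal-like cells, 0 in the mesothelial-like cells of both, and 5 and 2 UMIs (0.459 and 0.757 CPM) in macrophage-like cells. Endothelial-like cells gave 2 and 1 UMIs and T and NK-like cells 2 and 0 UMIs, and in these small classes the level is hardly bounded: in KPCA.FSTKO the intervals ran from 3.02% to 90.5% and from 6.22% to 186% of the cancer-like level. As deposited, 17.2% and 37.7% of cancer-like cells held a Pax8 UMI.

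Emx2, a homeobox factor needed for the urogenital tract, was found in the cancer-like cells of both libraries. It stood at 27.4 CPM (26.4 to 28.4) from 2972 UMIs in KPCA.FSTKO and at 25.9 CPM (22.9 to 29.3) from 259 UMIs in KPCA.FSTKO_hFSTL3, a ratio of 0.945 (0.829 to 1.07). With classes from Seurat clusters it passed as lower in KPCA.FSTKO_hFSTL3, at a log2 ratio of -1.09. Stromal-like cells gave 2.97 CPM from 17 UMIs and 0.828 CPM from 1 UMI, and macrophage-like cells 0.642 and 1.14 CPM. The gene (ENSMUSG00000043969, chr19:59458372-59465357, plus strand, 6.99 kb) overlaps the antisense gene Emx2os by 264 bases, and Emx2os kept the same territory, at 17.98 and 21.7 CPM in cancer-like against 1.92 and 0.83 CPM in stromal-like cells. Pax2, the paralog of Pax8 and a context gene here, stood at 33.1 and 39.0 CPM in cancer-like cells and at 0.698 CPM and 0 UMIs in stromal-like cells.

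The other Müllerian genes were compared as a list of 13. In cancer-like cells 9 had enough UMIs, of which 0 passed as higher in KPCA.FSTKO_hFSTL3 and 1 as lower, beside the 3.57% and 6.49% of all genes. That 1 was Wfdc2, at 481.5 CPM in KPCA.FSTKO and 81.7 CPM in KPCA.FSTKO_hFSTL3, and the median log2 ratio of the list was -0.21. Pax8 and Wfdc2, both used as markers of the tubal lineage, thus differed in opposite directions. Hoxa9, Hoxa10 and Hoxa11, the homeobox genes of the oviduct and uterus, stood at 43.7, 35.2 and 8.01 CPM in KPCA.FSTKO and, in KPCA.FSTKO_hFSTL3, at 29.3, 30.2 and 7.41 CPM. Mecom stood at 208 and 206 CPM and Nr2f2 at 139 and 120 CPM.

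Sox9 (ENSMUSG00000000567, chr11:112782224-112787760, plus strand, 5.54 kb) was found in most cancer-like cells. It gave 28494 UMIs, 263 CPM (260 to 266), in KPCA.FSTKO and 2432 UMIs, 243 CPM (234 to 253), in KPCA.FSTKO_hFSTL3, with a UMI in 80.6% and 69.8% of cells. The ratio of 0.926 (0.888 to 0.965) did not pass the size rule, nor did the log2 ratio of -0.80 with Seurat clusters, against -0.11. Stromal-like cells gave 38.2 CPM (33.3 to 43.6) and 40.5 CPM (30.0 to 53.6), and macrophage-like cells 7.25 CPM (5.74 to 9.03) and 4.54 CPM. In the order of levels cancer-like cells came first, stromal-like cells second and macrophage-like cells after them in both libraries, without overlap of these intervals in KPCA.FSTKO.

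Of 7 cartilage targets of Sox9 only Acan, the proteoglycan aggrecan, had enough UMIs between the cancer-like cells of the genotypes, and it passed as lower (6.49% of all genes) at 20.4 CPM in KPCA.FSTKO and 8.81 CPM in KPCA.FSTKO_hFSTL3. Acan stood at 0.52 CPM in KPCA.FSTKO stromal-like cells. Among 9 SOX relatives 3 had enough UMIs and 0 passed in either direction (3.57% and 6.49% of all genes). Sox4 stood at 262 and 395 CPM and Sox5 at 105 and 87.1 CPM in cancer-like cells.

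Sox17 (ENSMUSG00000025902, chr1:4490931-4497354, minus strand, 6.42 kb), a marker of the secretory tubal cell and of arterial endothelium, was found in the endothelium and hardly in the cancer cells. Endothelial-like cells gave 59 UMIs in 23 of 71 cells, 70.7 CPM (53.8 to 91.2), in KPCA.FSTKO and 11 UMIs in 5 of 17 cells, 55.5 CPM (27.7 to 99.2), in KPCA.FSTKO_hFSTL3. Cancer-like cells gave 35 UMIs, 0.323 CPM, in KPCA.FSTKO and 1 UMI in KPCA.FSTKO_hFSTL3. The endothelial SOX relatives Sox7 and Sox18 stood in endothelial-like cells at 67.1 and 156 CPM (KPCA.FSTKO) and at 45.4 and 247 CPM (KPCA.FSTKO_hFSTL3). No Sox17 UMI was found in stromal-like, mesothelial-like or macrophage-like cells.

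Esr1, the estrogen receptor alpha gene (ENSMUSG00000019768, chr10:4611593-5005614, plus strand), has the longest span of the 10, 394 kb. In cancer-like cells it gave 7540 UMIs, 69.6 CPM (68.0 to 71.2), in KPCA.FSTKO and 963 UMIs, 96.4 CPM (90.4 to 103), in KPCA.FSTKO_hFSTL3. The ratio of 1.39 (1.29 to 1.48) did not pass the size rule, and with Seurat clusters its direction turned, to a log2 ratio of -0.85 from 0.47. The 10 cells richest in Esr1 held 336 of the 963 UMIs in KPCA.FSTKO_hFSTL3 and 384 of the 7540 in KPCA.FSTKO. Stromal-like cells gave 36.7 CPM (31.9 to 41.96) and 21.5 CPM (14.1 to 31.5), and macrophage-like cells 33.7 CPM (30.3 to 37.3) and 36.7 CPM (29.8 to 44.8). In KPCA.FSTKO the stromal-like and macrophage-like intervals overlapped, and cancer-like cells stood above both.

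The progesterone receptor gene Pgr, a target of estrogen receptor in the uterus, was at 45 UMIs in 34 of the 3732 KPCA.FSTKO cancer-like cells, 0.415 CPM (0.303 to 0.556). The 279 KPCA.FSTKO cells above both the cancer and the stromal gate held a further 19 UMIs, 3.36 CPM. In KPCA.FSTKO_hFSTL3 cancer-like cells Pgr was at 1 UMI. All filtered barcodes together held 75 and 5 Pgr UMIs. With 46 UMIs in all, Pgr was under the minimum of the size rule. With a minimum of 20 UMIs, Pgr passed as lower in KPCA.FSTKO_hFSTL3, as did 1381 of 16190 genes. Its ratio of 0.241 (0.006 to 1.41) rested on that 1 UMI, and the interval includes no difference.

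A list of 9 genes around the steroid receptors was compared in the same way. In cancer-like cells 6 of them had enough UMIs, 1 passed as higher in KPCA.FSTKO_hFSTL3 and 0 as lower (3.57% and 6.49% of all genes), with a median log2 ratio of 0.16. The 1 was Greb1, a growth gene induced by estrogen, at 4.29 CPM in KPCA.FSTKO and 13.8 CPM in KPCA.FSTKO_hFSTL3. The glucocorticoid receptor gene Nr3c1 stood at 61.1 and 63.4 CPM.

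Of the 7 factors with enough UMIs in cancer-like cells, Esr1 was the one whose level in macrophage-like cells came nearest to its cancer-like level, as the plot of macrophage percentages shows. Its macrophage-like level was 48.4% (43.5 to 53.8) of the cancer-like level in KPCA.FSTKO, and 38.1% (30.6 to 47.0) for the other genotype. For comparison, 4 genes of the cancer cells lay lower, with Hmga2 at 2.72% and 1.16%, Krt18 at 2.94% and 2.60%, Krt8 at 3.70% and 2.17%, and Cdkn2a at 2.69% and 2.04%. Msln and Wfdc2, also in the cancer gate, lay at 4.46% and 2.36% and at 2.59% and 0.93%. Sox9 lay at 2.76% and 1.87%, Emx2 at 2.34% and 4.38% and Pax8 at 4.79% and 2.54%. The Esr1 intervals lay above all of these values in both libraries, and the part of free RNA was not tested. As deposited, 29.4% and 36.5% of macrophage-like cells held an Esr1 UMI at median depths of 12927 and 18322 UMIs, against 9.14% and 8.11% for Sox9. Thinned to 1000 UMIs the shares were 3.75% and 2.03% for Esr1 and 0.38% and 0.68% for Sox9. In T and NK-like cells of KPCA.FSTKO, 9 Esr1 UMIs gave 31.9% (14.6 to 60.6) of the cancer-like level, and in endothelial-like cells 3 UMIs gave 5.17%.

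**Figure D3:**
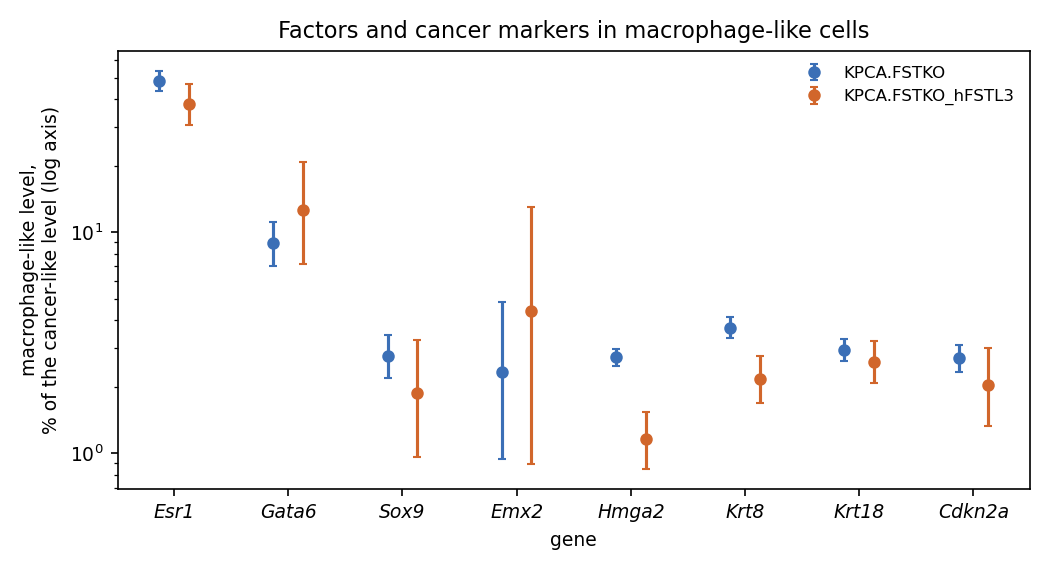
Level in macrophage-like cells as a percent of the level in cancer-like cells (log axis, bars are 95% counting intervals) for Esr1, Gata6, Sox9 and Emx2 and for the cancer markers Hmga2, Krt8, Krt18 and Cdkn2a, in KPCA.FSTKO (blue) and KPCA.FSTKO_hFSTL3 (orange). Esr1 lies at 48.4% and 38.1% and Gata6 at 8.91% and 12.6%, while the 4 markers lie between 1.16% and 3.70%.

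Gata6 stood at 8.91% (7.05 to 11.1) and 12.6% (7.15 to 20.7) of its cancer-like level. Hnf4a stood at 10.9% (1.31 to 40.0) in KPCA.FSTKO from 2 UMIs, and Wt1, with few UMIs in either class, at 540% (292 to 970) and 32.9% (3.76 to 133). Gata6 is a known regulator of the large macrophages that reside in the peritoneal cavity. Its level was higher in the macrophage-like cells that held more markers of these large macrophages. Those markers include Prg4, which also led cluster 1 of the cancer-like cells, and the median score of the list in cancer-like cells was 0 in both libraries. The part of cancer-cell RNA in this score was not tested. Macrophage-like cells of KPCA.FSTKO with a large peritoneal macrophage score below 1, from 1 to 3 and of 3 or more held 2.82, 6.67 and 31.9 CPM of Gata6, and those of KPCA.FSTKO_hFSTL3 held 0.61, 2.55 and 23.2 CPM. These groups were 600, 121 and 78 cells in KPCA.FSTKO and 103, 19 and 26 cells in KPCA.FSTKO_hFSTL3. Esr1 did not follow the same division, with 32.7, 37.6 and 34.6 CPM in KPCA.FSTKO and 35.8, 30.6 and 43.1 CPM in KPCA.FSTKO_hFSTL3.

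Wt1, the Wilms tumor factor of mesothelium, podocytes and gonad (ENSMUSG00000016458, chr2:105126529-105173616, plus strand, 47.1 kb), was found in the host stroma and hardly in the grafted cells. Stromal-like cells gave 1197 UMIs, 209 CPM (197 to 221), in KPCA.FSTKO and 261 UMIs, 216 CPM (191 to 244), in KPCA.FSTKO_hFSTL3. Mesothelial-like cells gave 212 UMIs, 368 CPM (320 to 421), and 167 UMIs, 545 CPM (465 to 634), the highest level of Wt1 in both libraries. Cancer-like cells gave 35 UMIs in 29 cells, 0.323 CPM (0.225 to 0.449), and 23 UMIs in 15 cells, 2.30 CPM (1.46 to 3.45). Of these 23 UMIs 18 lay in 10 cells, and with 58 UMIs in both sums the ratio of 7.13 (4.02 to 12.4) fell short of the size rule's minimum. Wt1os, which starts 18 bases from Wt1 on the opposite strand, stood at 60.7 and 89.4 CPM in stromal-like and at 0.157 CPM and 5 UMIs in cancer-like cells. Macrophage-like cells gave 19 Wt1 UMIs in 8 cells of KPCA.FSTKO and 2 UMIs in KPCA.FSTKO_hFSTL3.

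Gata6 (ENSMUSG00000005836, chromosome 18, plus strand, 33.6 kb) was present in both the stroma and the grafted cells. Stromal-like cells gave 1000 UMIs, 174.5 CPM (164 to 186), and 210 UMIs, 173.8 CPM (151 to 199), and mesothelial-like cells 274 CPM (233 to 320) and 352 CPM (289 to 425). Cancer-like cells gave 8819 UMIs, 81.4 CPM (79.7 to 83.1), in KPCA.FSTKO and 480 UMIs, 48.0 CPM (43.8 to 52.5), in KPCA.FSTKO_hFSTL3. The ratio of the genotypes in cancer-like cells, 0.590 (0.537 to 0.647), did not pass the size rule, but Gata6 passed as lower with Seurat clusters (log2 ratio -1.16), without the top 5% of UMIs (-1.12) and at a ratio of 1.5. Within clusters 1 and 2 it was 0.528 and 0.554, in cluster 4 0.888 (0.744 to 1.05), in cluster 9 0.739 (0.418 to 1.22) and in cluster 11 0.293 (0.121 to 0.613).

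Gata4 (ENSMUSG00000021944, chr14:63198922-63271692, minus strand, 72.8 kb) kept a territory other than that of Gata6. Cancer-like cells gave 900 UMIs, 8.30 CPM (7.77 to 8.87), in KPCA.FSTKO and 94 UMIs, 9.41 CPM (7.60 to 11.5), in KPCA.FSTKO_hFSTL3, a ratio of 1.13 (0.906 to 1.40), which turned with Seurat clusters to a log2 ratio of -0.66 from 0.18. Of the 94 Gata4 UMIs 30 lay in 10 cells. Stromal-like cells gave 14 UMIs, 2.44 CPM (1.34 to 4.10), and 2 UMIs. Mesothelial-like cells gave 0 Gata4 UMIs in both libraries, which allows up to 5.21 and 9.78 CPM by the floor of 3 UMIs over the class, in the same cells that held the highest levels of Wt1 and Gata6. Apart from the grafted cells, 7 Gata4 UMIs (40.9 CPM) lay in the 6 acinar-like cells of KPCA.FSTKO_hFSTL3. The panels of Wt1, Gata6 and Gata4 by class show these differences.

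**Figure D4:**
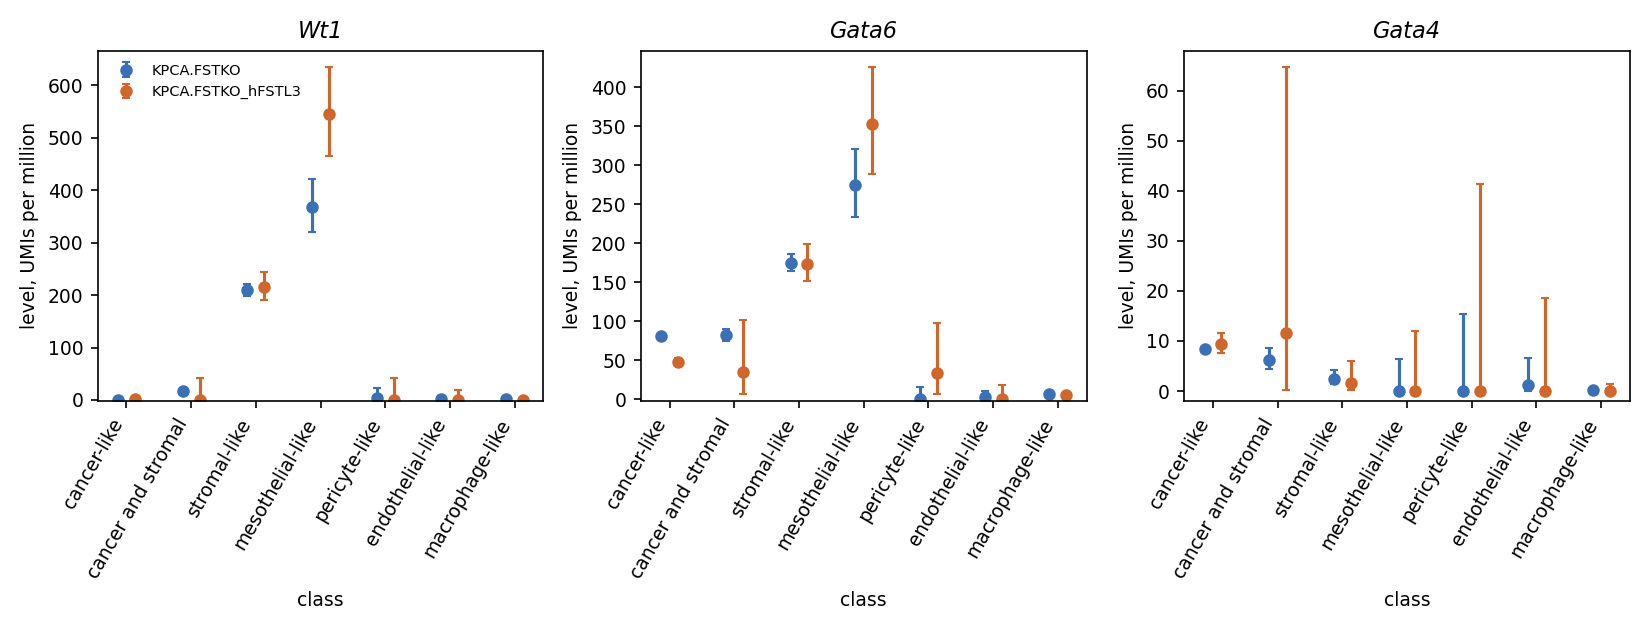
Level (CPM, linear axes from 0, bars are 95% counting intervals) of Wt1, Gata6 and Gata4 in 7 classes of cells of KPCA.FSTKO (blue) and KPCA.FSTKO_hFSTL3 (orange). Wt1 reaches 368 and 545 CPM and Gata6 274 and 352 CPM in mesothelial-like cells, where Gata4 gave 0 UMIs, and Wt1 lies at 0.323 and 2.30 CPM in cancer-like cells.

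Stromal-like and cancer-like cells were compared within each library by the same size rule. In KPCA.FSTKO 1937 of 13238 genes (14.6%) passed as higher in stromal-like cells and 2689 (20.3%) as lower, with a median log2 ratio of -0.21. Wt1, 647 times (463 to 933), and Gata6, 2.15 times (2.01 to 2.29), passed as higher in stromal-like cells. Sox9, Emx2, Pax8, Gata4 and Hnf4a passed as lower. The cancer-like level was 6.88 times the stromal-like level for Sox9, 9.24 times for Emx2 and 54.9 times (9.84 to 2172) for Pax8, the last from 1 stromal-like UMI. With a looser gate the log2 ratio of stromal-like to cancer-like cells shrank from -5.78 to -2.14 for Pax8, from -3.21 to -1.58 for Emx2 and from -2.78 to -1.81 for Sox9, and that of Wt1 from 9.34 to 7.80. Gata4 stood in stromal-like cells at 0.294 (0.160 to 0.496) of its cancer-like level. Hnf4a gave 0 stromal-like UMIs, 3.21-fold lower than in cancer-like cells with a floor of 3 UMIs over the class. The counting interval of this Hnf4a ratio allows a difference as small as 2.58-fold. Esr1, at 0.527 (0.457 to 0.604), did not pass, but passed as lower with Seurat clusters (log2 ratio -1.18), without the top 5% of UMIs (-1.04) and at a ratio of 1.5.

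In KPCA.FSTKO_hFSTL3 1063 of 8875 genes (12%) passed as higher in stromal-like cells and 1618 (18.2%) as lower. Wt1, 93.8 times (61.2 to 151), and Gata6, 3.62 times (3.06 to 4.26), again passed as higher. The size of the Wt1 ratio depended on the gate, with a log2 ratio of 6.55 that ran from 3.74 with Seurat clusters to 8.90 with a stricter gate. Pax8 at 0.055 (0.007 to 0.202), Sox9 at 0.167 (0.123 to 0.221), Emx2 at 0.032 (0.001 to 0.179) and Esr1 at 0.223 (0.145 to 0.329) of the cancer-like level passed as lower. With the looser gate the log2 ratios of Pax8 and Emx2 shrank from -4.17 to -1.26 and from -4.97 to -2.04. Gata4 had 96 UMIs in both sums, under the minimum, and passed as lower with no barcode filter, the looser gate, Seurat clusters or a minimum of 20 UMIs. The comparisons between classes and between genotypes share these sums.

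The context lists were compared between stromal-like and cancer-like cells in the same way. In KPCA.FSTKO, beside the 14.6% and 20.3% of all genes, 9 of the 13 Müllerian genes had enough UMIs, of which only Meis1, a homeobox cofactor, passed as higher in stromal-like cells, at 331 against 101 CPM. Lower were Pax2, Hoxa9, Hoxa10, Hoxa11, Mecom, Ovgp1 and Wfdc2, and the median log2 ratio of the list was -3.57. Of the SOX relatives 4 had enough UMIs, with Sox5 (413 against 105 CPM) and Sox6 (19.0 against 0.23 CPM) higher in stromal-like cells and Sox7 lower. Of the steroid receptor list 6 had enough UMIs, with the coactivator gene Ncoa1 higher at 46.4 CPM in stromal-like cells and with Greb1 and Fkbp5 among those lower.

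Between the stromal-like cells of the genotypes 119 of 7515 genes (1.58%) passed as higher in KPCA.FSTKO_hFSTL3 and 184 (2.45%) as lower, or 80 and 254 genes after TMM scaling. Only 4 of the 10 factors, Wt1, Sox9, Esr1 and Gata6, had enough UMIs, and none of them passed. The other factors could not be called. Esr1 passed as lower with Seurat clusters (log2 ratio -1.24) and at a ratio of 1.5. Wt1 stood at a ratio of 1.03 (0.901 to 1.18), Gata6 at 0.996 (0.854 to 1.16), Sox9 at 1.06 (0.762 to 1.45) and Esr1 at 0.587 (0.375 to 0.885). Within the stromal-like class Wt1 and Gata6 were lower in cells with more myofibroblast markers. Below and above a myofibroblast score of 50, Wt1 stood at 224 and 143 CPM in KPCA.FSTKO and 278 and 140 CPM in KPCA.FSTKO_hFSTL3, and Gata6 at 185 and 129 CPM and at 224 and 112 CPM. The groups below and above the score were 263 and 53 cells in KPCA.FSTKO and 28 and 23 cells in KPCA.FSTKO_hFSTL3.

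Of 15 other mesothelial and coelomic genes, 5 had enough UMIs in the KPCA.FSTKO comparison of classes, 2 passed as higher and 3 as lower in stromal-like cells (14.6% and 20.3% of all genes), with a median log2 ratio of -2.18. Higher were Aldh1a2, which makes retinoic acid, at 206 CPM against 0.48 CPM, and Hand2, a factor of mesenchyme, at 18.5 CPM in stromal-like cells. Lower were Msln at 26.7 against 564 CPM, Nr2f1 at 4.71 against 73.2 CPM and Podxl at 5.93 against 26.9 CPM. Msln is known as a mesothelial gene and is also a marker of the cancer gate. The gate itself fixes part of that difference in Msln.

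Of 9 GATA partners and relatives, 4 had enough UMIs between the cancer-like cells of the genotypes and 2 passed as higher and 0 as lower in KPCA.FSTKO_hFSTL3 (3.57% and 6.49% of all genes). These were Gata3, at 6.93 and 20.02 CPM, and Isl1, at 1.83 and 4.504 CPM, and the median log2 ratio of the list was 1.06. Zfpm2, the cofactor of Gata4, stood at 107 and 188 CPM in cancer-like cells and at 224 and 215 CPM in stromal-like cells. In KPCA.FSTKO 4 of the list had enough UMIs between classes, and Zfpm2 and Isl1 passed as higher in stromal-like cells (14.6% of all genes) and 0 as lower (20.3%). In KPCA.FSTKO_hFSTL3, of 3 with enough UMIs, Zfpm1, the cofactor of Gata1, passed as higher (12% of all genes) at 78.6 against 19.6 CPM. In KPCA.FSTKO Zfpm1 stood at 46.6 CPM in stromal-like against 33.3 CPM in cancer-like cells and did not pass.

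Hnf4a, a nuclear receptor of hepatocytes and gut (ENSMUSG00000017950, chr2:163506808-163572910, plus strand, 66.1 kb), was found in a small share of the grafted cells. In KPCA.FSTKO 182 UMIs in 103 cancer-like cells (2.76%) gave 1.68 CPM (1.44 to 1.94). In KPCA.FSTKO_hFSTL3 1 cell held all 3 UMIs, 0.300 CPM (0.062 to 0.877), and the ratio was 0.179 (0.037 to 0.531). Stromal-like, mesothelial-like and endothelial-like cells gave 0 UMIs, and macrophage-like cells 2 and 0. The 10 richest KPCA.FSTKO cells held 43 of the 182 UMIs and no cell more than 6. Hnf4a overlaps its antisense gene Hnf4aos over 34913 bases.

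Cells with Hnf4a were in part those with the epithelial adhesion gene Epcam. Epcam UMIs were found in 72 of the 3732 KPCA.FSTKO cancer-like cells, and 13 of these also held Hnf4a, with 24 of the 182 UMIs. Hnf4a stood at 9.69 CPM in the 72 cells and 1.49 CPM in the other 3660, and Pax8 at 27.0 and 9.18 CPM. In 31 cells with 3 or more Epcam UMIs, Hnf4a stood at 16.5 CPM and Pax8 at 44.9 CPM. The keratin gene Krt18 stood at 2150 CPM in those 31 cells and 915 CPM in cells without Epcam. In KPCA.FSTKO_hFSTL3 only 1 of the 361 cancer-like cells held an Epcam UMI, and it was the 1 cell with Hnf4a.

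Of 13 endoderm genes 3 had enough UMIs between the genotypes, of which 0 passed as higher and 1 as lower (3.57% and 6.49% of all genes). The 1 was Foxa2, a forkhead factor of endoderm, at 26.9 CPM in KPCA.FSTKO and 12.6 CPM in KPCA.FSTKO_hFSTL3. Hnf4g, the paralog of Hnf4a, stood at 1.13 and 1.501 CPM. In KPCA.FSTKO both Foxa2 and Hnf4g passed as lower in stromal-like cells. Of 7 Hnf4a targets only Apoa2 had enough UMIs, at 2.11 and 1.40 CPM, and F7 was found in macrophage-like cells at 230 and 136 CPM.

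The factors also varied among the KPCA.FSTKO cancer-like cells. Cluster 9 had 309 cells, a median depth of 7368 UMIs and the leading genes Gm26917, Lingo2, Taco1 and Kcnq5. Of the 4 clusters it held the highest levels of Esr1 (280.3 CPM), Pax8 (36.9 CPM), Pax2 (90.5 CPM) and Hnf4a (5.88 CPM). Gata4 (19.9 CPM) and Gata6 (112 CPM) were also highest there, and Sox9 (122 CPM) was lowest. Gata4 stood at 8.68, 6.47 and 8.74 CPM and Gata6 at 97.8, 67.7 and 73.8 CPM in clusters 1, 2 and 4. In clusters 1, 2 and 4, with 1283, 1017 and 830 cells, Esr1 stood at 109.8, 26.3 and 41.4 CPM, Pax8 at 12.5, 5.18 and 7.93 CPM, and Sox9 at 317, 280.3 and 207 CPM. Esr1, Pax8, Pax2 and Gata6 thus kept 1 order of clusters, 9 over 1 over 4 over 2. The same order held for Esr1, Pax8 and Pax2 in KPCA.FSTKO_hFSTL3, but not for Gata6. There Esr1 stood at 454, 171, 79.7 and 21.7 CPM in clusters 9, 1, 4 and 2. Emx2 varied little, between 23.3 and 34.5 CPM in the 4 clusters of KPCA.FSTKO. The clusters were made without the 10 factors and without the gate markers, but from the same cells, so these values are a description.

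The order for Esr1 and Pax8 moved with the genomic span of genes. Cluster 9 stood over the other KPCA.FSTKO cancer-like cells at a median log2 ratio of -0.90 for genes under 10 kb, 0.14 for 10 to 30 kb, 1.09 for 30 to 100 kb and 1.80 for 100 kb or more. Esr1 at 2.14 lay above 78.8% of genes in its span range, Pax8 at 2.07 above 94.2% and Hnf4a at 1.92 above 90.5%. Gata6 at 0.47 lay above 24.0%, and Sox9 stood at -1.13 and Emx2 at -0.03. The part of span in the levels of cluster 9 was not tested. In cluster 1, of ordinary depth, Esr1 stood at 1.29 over the other cells, above 98.8% of genes of 100 kb or more, whose median was 0.46. Between the genotypes the medians of the 4 span ranges were -0.04, -0.02, 0.02 and 0.08, and Pax8 with a log2 ratio of 1.64 lay above 99.3% of genes of its own range.

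**Figure D5:**
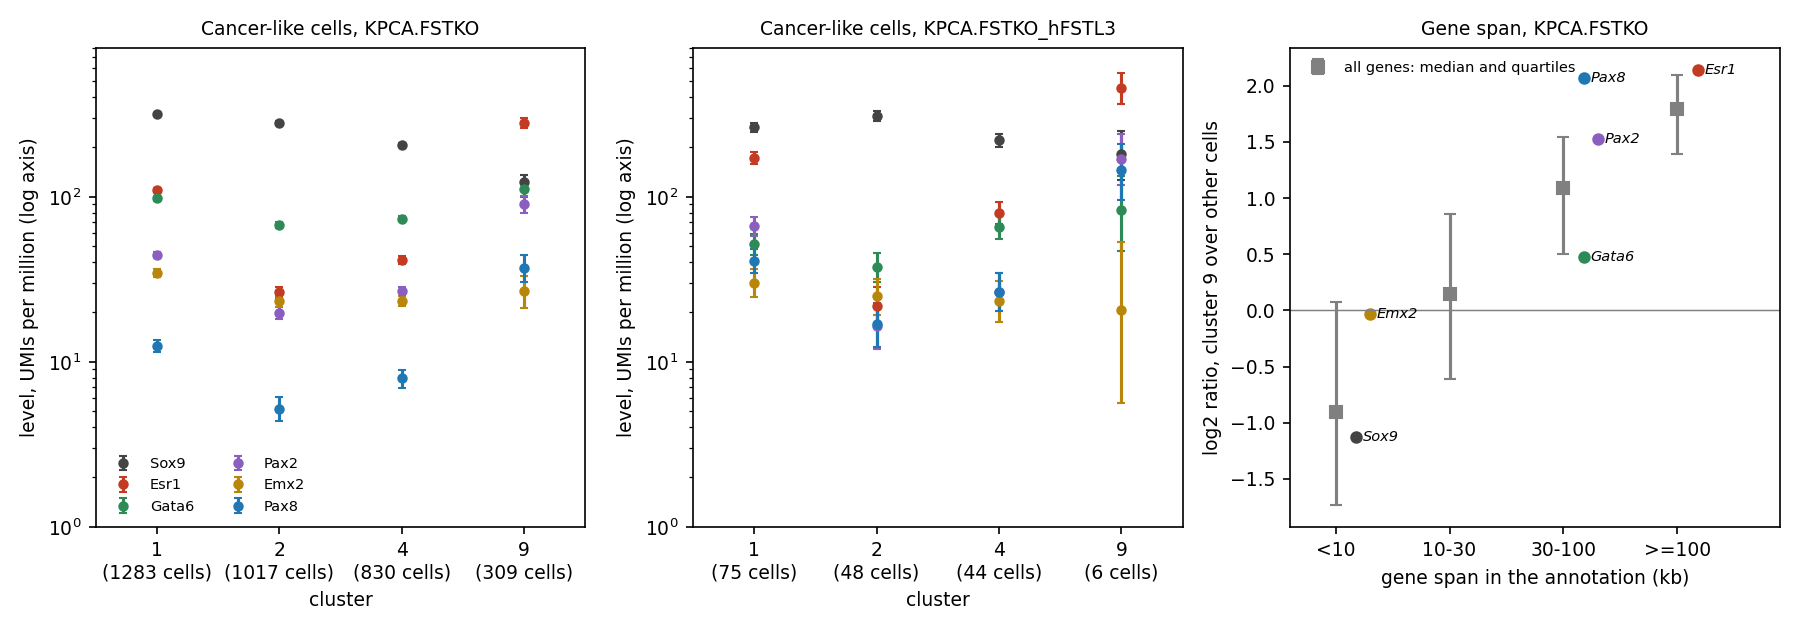
Left and middle, level (CPM, log axis) of Sox9, Esr1, Gata6, Pax2, Emx2 and Pax8 in clusters 1, 2, 4 and 9 of cancer-like cells in each library. Right, log2 ratio of cluster 9 over other KPCA.FSTKO cancer-like cells by gene span, with the median and quartiles of all genes in grey and the factors as points; the grey median climbs from -0.90 to 1.80, Pax8 and Esr1 lie at 2.07 and 2.14 and Sox9 at -1.13.

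Esr1 and Emx2 were higher in cancer-like cells that held more stromal UMIs. Across stromal scores of 0 to 5, 5 to 10, 10 to 20 and 20 to 50 in KPCA.FSTKO, Esr1 stood at 42.2, 53.5, 79.5 and 118 CPM and Emx2 at 19.9, 25.4, 27.9 and 40.3 CPM. Gata6 stood at 82.3, 79.1, 79.6 and 85.9 CPM, and Wt1 at 0.14, 0.13, 0.60 and 0.48 CPM. Stromal-like cells of KPCA.FSTKO themselves held 36.7 CPM of Esr1 and 2.97 CPM of Emx2. The part of stromal RNA in the Esr1 and Emx2 levels was not tested. In the 279 cells above both the cancer and the stromal gate, scores of 50 to 80 and of 80 or more gave 179.6 and 236 CPM of Esr1 and 5.00 and 36.4 CPM of Wt1. Hnf4a ran the other way, at 4.50, 0.94, 0.49 and 0.39 CPM over the first 4 ranges, as did Epcam at 17.4, 1.64, 0.42 and 0.63 CPM. Esr1 stood at 62.3, 82.0, 121 and 145 CPM over the same ranges in KPCA.FSTKO_hFSTL3. By span, genes of 100 kb or more stood at a median log2 ratio of 0.40 between scores of 20 or more and below 5, where Esr1 stood at 1.49, above 91.6% of them.

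Sox9 and Esr1 were lower in cells with more proliferation markers. Over proliferation scores of 0 to 1, 1 to 5, 5 to 20 and 20 or more in KPCA.FSTKO, Sox9 stood at 308, 228, 205 and 206 CPM and Esr1 at 82.8, 69.3, 40.3 and 49.4 CPM. In KPCA.FSTKO_hFSTL3 Sox9 stood at 300.4, 203, 186 and 137 CPM and Esr1 at 116, 97.8, 73.4 and 33.6 CPM. Depth moved with these levels too. From the shallowest of 5 depth ranges, 1000 to 5000 UMIs, to the deepest, Esr1 in KPCA.FSTKO went from 174 to 45.9 CPM and Pax8 from 18.4 to 6.68 CPM, while Sox9 went from 163 to 263 CPM. Its part in the orders above was not tested.

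Pax8, Pax2 and Esr1 tended to be found in the same cells. At 1000 UMIs per cell too few cells held a pair, with 3 KPCA.FSTKO cells holding Pax8 and Esr1 against 2.85 expected from the separate shares. Thinned to 5000 UMIs, 70 of 3426 KPCA.FSTKO cells held both Pax8 and Esr1 against 38.9 expected, 1.80 times (1.40 to 2.27). Pax8 and Pax2 were found together in 44 cells against 24.1 expected, 1.83 times (1.33 to 2.45), and Esr1 and Pax2 in 162 against 113.6, 1.43 times (1.21 to 1.66). Pax8 with Sox9, in 93 cells against 95.1 expected, and Sox9 with Esr1, at 0.98 times, did not exceed the expected number. Gata4 and Gata6 were together in 45 cells against 40.5 expected. In the 245 KPCA.FSTKO_hFSTL3 cells of that depth, Pax8 and Esr1 were together in 16 against 9.40 expected, 1.70 times (0.97 to 2.76).

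The genes with the most similar pattern to each factor were sought over the 11 points of class and library with at least 50 cells, by Pearson's r of log2(CPM + 1) over 15204 genes. Points of 1 library share its RNA background, and r is given as a description. Wt1 was followed most closely by Mmp23, Tnfrsf19, Gria3, Ror2 and Barx1, with r from 0.991 to 0.994, which were high in the same stromal-like points. Sox17 was nearest to Grrp1 and to the Notch ligand gene Dll4, both at 0.998, and Hnf4a to the epithelial genes Tmprss2, Aqp8 and Grhl2 at 0.992. Only KPCA.FSTKO gave an endothelial-like point, so the r values of Sox17 rest largely on it. Hnf4a stood at 1.68 CPM in the cancer-like point of KPCA.FSTKO and 0.300 CPM in that of KPCA.FSTKO_hFSTL3, so its r values may also rest on few points. Pax8 was nearest to the homeobox gene Hoxb9 at 0.971 and the collagen gene Col4a4 at 0.966. Sox9 was nearest to Arl2 (0.976), Emx2 to 4930429D17Rik (0.980), Gata4 to Epb41l4a (0.987) and Gata6 to Gm10115 (0.981). Esr1 was nearest to Smyd5 at 0.939 and to Spp1, the osteopontin gene, at 0.922. Esr1 had the lowest best r of the factors tested.

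In the mixed barcodes of KPCA.FSTKO_hFSTL3 the stromal and the cancer factors occurred side by side. These 3071 barcodes held 1162 Wt1 UMIs (21.4 CPM), 7203 Sox9 UMIs (133 CPM), 1881 Gata6 UMIs (34.7 CPM) and 1733 Esr1 UMIs (32.0 CPM). Wt1, at 0.323 CPM in KPCA.FSTKO cancer-like and 209 CPM in KPCA.FSTKO stromal-like cells, thus lay between those classes. No size rule was applied to these barcodes.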

How the data were processed

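Dissociated omental tumors were run on the 10x Genomics 3′ protocol, and per the labels the reads were aligned to mm10. The authors deposited raw UMI counts per gene and barcode for each library, already filtered to cells. Cell Ranger is given as 3.1.0 in the submitters' processing notes and as 7.2.0 in the matrix headers, and which made the counts was not settled. The deposited 7582 and 4244 barcodes equal the cell numbers the study states after its own filters.

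Barcodes with under 20% mitochondrial UMIs and more than 200 but fewer than 8000 genes were kept (6777 and 4041). Each was scored by the UMIs of fixed marker lists per 10000 UMIs and gated. The positive thresholds were 20 for cancer, 50 for stromal, 20 for macrophage, 20 for endothelial, 8 for T and NK and 3 for mesothelial markers with at least 2 found. Barcodes above the bounds of several classes (12 for cancer, 50 for stromal, 5 for macrophage, 8 for endothelial) were set aside as mixed, except those positive for cancer and stromal markers alone, and barcodes under 1000 UMIs were left out. Gates were set after the data had been seen, and the members and gene lists were chosen with earlier results of these data known. Counts were summed per class and library. CPM intervals are exact Poisson, shares exact Clopper-Pearson, and ratios exact conditional binomial intervals, all at 95%. Differences were named by the size rule (100 UMIs, ratio of 2), and no count model was fitted. From each context list at most the 4 genes with most UMIs and those past the size rule were named, and also Sox18, Muc16 and Lhx1. Scrublet, in scanpy 1.11.5, called 90 and 1 doublets, a share too low in the second library to rely on, and doublets were kept. Clusters came from Seurat 5.3.0 (2000 variable genes without members and gate markers, 10 components, resolution 0.8, no integration). Gene coordinates are from GENCODE vM21. Python 3.11.15, scipy 1.17.1, R 4.3.3 and edgeR 4.0.16 (TMM factors only) were used, and the code was tested on simulated data. Some genes of the lists are not reported here.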

Additional observations from a re-analysis of the deposited data

How the results depend on the processing

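No paired analysis was possible because each genotype was 1 library and no test was made, and for the same reason no replicate could be left out. The higher calls between cancer-like cells numbered 707 with a looser gate, 1536 with classes from Seurat clusters, 1116 with 20 UMIs as the minimum, 1447 at a ratio of 1.5 and 83 at a ratio of 4. The lower calls numbered 1513, 1381, 1754 and 270 with the last 4 of these settings. Between stromal-like and cancer-like cells of KPCA.FSTKO the higher calls numbered 3273 with 20 UMIs, 2923 at 1.5 and 980 at 4. The lower calls numbered 3044, 4470 and 1060 in the same order. With 20 UMIs the higher calls made up 51.8%, against 41.9% in the main setting. In KPCA.FSTKO_hFSTL3 the higher calls numbered 2625 with Seurat clusters, 657 without the top 5% of UMIs and 1967 with 20 UMIs. At ratios of 1.5 and 4 they numbered 1761 and 451. The lower calls numbered 1780, 809, 2278, 2794 and 520 in the same order. With Seurat clusters the higher calls made up 59.6%, against 39.6% in the main setting. Between stromal-like cells of the genotypes the higher calls numbered 450 with 20 UMIs, 564 at 1.5 and 10 at 4, and the lower calls 666, 568 and 23. Among calls between cancer-like cells the higher ones made up 35.5%, against 47.1% with the looser gate, 50.4% with Seurat clusters, 30.9% with the stricter gate, 26.9% with TMM scaling and 23.5% at a ratio of 4.

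Pax8 between cancer-like cells kept a log2 ratio of 1.44 to 1.75 under the alternatives other than Seurat clusters, where it was 0.62 and lost its call. There 1 cluster of 2058 barcodes, 2055 of them mixed, took the cancer-like name from 3 gated cells. The Hnf4a call was lost without the top 5% of UMIs (-0.57), where Gata6 passed as lower (-1.12). Esr1 between cancer-like cells stood at 0.08 to 0.67, but at -0.85 with Seurat clusters, where Emx2 (-1.09) and Gata6 (-1.16) passed as lower and Sox17 as higher. With 20 UMIs as the minimum Sox17 and Pgr passed as lower, each from 1 KPCA.FSTKO_hFSTL3 UMI. Their ratios of 0.310 (0.008 to 1.84) and 0.241 (0.006 to 1.41) had intervals that include no difference. Wt1 passed as higher between cancer-like cells with the looser gate, Seurat clusters or 20 UMIs as the minimum. In KPCA.FSTKO Gata6 missed the call of stromal-like over cancer-like cells with the looser gate (0.92), and in KPCA.FSTKO_hFSTL3 so did Esr1 (-0.53). Without the top 5% of UMIs only Sox9 and Esr1 of the factors passed as lower in KPCA.FSTKO_hFSTL3. The causes were not tested. The setting of cells with 10000 or more UMIs was chosen after seeing the data and moved none of the 8 counts of calls by over 1.5 times.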
